A study of Homo sapiens with 2 samples.

Results

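The nuclear pore complex mRNAs were the listed genes whose symbol begins with NUP and a digit, together with NUPL2, POM121, POM121C, NDC1, AAAS, SEH1L, SEC13, RAE1, TPR, RANBP2 and AHCTF1. This gave 32 of the 14914 listed features. The rule itself uses gene symbols only, although it was written with earlier results of these data known. Pseudogenes and hyphenated names were left out. The RNA came from RIP-seq, the sequencing of RNA that co-precipitates with a protein, in HUH7, an established human hepatocellular carcinoma line. The IP group was 1 library of RNA recovered with CSTF2, and the Input group was 1 library of input RNA. The labels name no treatment, no genetic change and no time point for either group. CSTF2 (CstF-64) contacts RNA on behalf of the cleavage stimulation factor CstF, and the series asks which RNAs it binds. There were no replicates, so every difference describes these 2 libraries, and every interval below covers counting error only. A mock immunoprecipitation was not analysed here. The members were grouped by their place in the pore, from textbook knowledge.

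The nuclear pore complex is the gated channel of the nuclear envelope through which proteins enter the nucleus and mRNPs leave it. Its scaffold consists of an outer ring built from Y-shaped complexes and an inner ring, anchored in the membrane by transmembrane nucleoporins. Nucleoporins with phenylalanine-glycine (FG) repeats fill the channel, filaments project from the cytoplasmic face, and a basket hangs on the nuclear face. CSTF2 binds U- and GU-rich sequence downstream of the cleavage site while the 3' end of a pre-mRNA is made, and the AAUAAA hexamer upstream of that site is bound by a separate factor, CPSF.

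Of the 32 members, 24 had AATAAA in the last 40 bases of their principal transcript, 2 had ATTAAA instead and 6 had neither. The same search found AATAAA in 61.5% and ATTAAA in 14.3% of 11443 protein-coding genes of the table. Only the transcript strand was searched, for AATAAA first and for ATTAAA where that was absent. The last 30 bases of 9 members are shown, picked from both ends of the range of ratios among those whose hexamer lies within these 30 bases, because the hexamer marks the end at which the cleavage factors assemble and because 2 of the ends are near copies. The sequences are those of GENCODE v29 transcripts on GRCh38, 5' to 3' on the transcript strand with T for U, and capitals mark the hexamer.
RANBP2 (chr2:108785782-108785811, plus strand): aaagatagAATAAAattcattatttgtaca
POM121 (chr7:72948274-72948303, plus strand): agAATAAAaaactgtgatctatcgtagagt
POM121C (chr7:75416790-75416819, minus strand): tgacattaagAATAAAaaactgtgatctat
AHCTF1 (chr1:246839098-246839127, minus strand): tagcttgAATAAAaacactgctcattaaaa
NUP210 (chr3:13316235-13316264, minus strand): tatttAATAAAgttctatgtgattttttaa
NUP188 (chr9:129007067-129007096, plus strand): atacagatATTAAAatcttgtttatagaca
NUP54 (chr4:76114664-76114693, minus strand): aAATAAAttcttaatttgtaattactttta
NUPL2 (chr7:23200980-23201009, plus strand): cacgAATAAAgtacttttctcatgccatac
NUP35 (chr2:183161651-183161680, plus strand): gtttcttgatAATAAAcattgtcaatgata
The ends of POM121 and POM121C share a run of 22 bases, agAATAAAaaactgtgatctat. AAAS and NUP214, also among the highest ratios, are not shown because their AATAAA begins 32 and 31 bases from the end. The 6 members with neither hexamer were NUP160, NDC1, NUP133, NUP58, NUP62 and NUP88. For NUP58, NUP62 and NUP88 the principal transcript stops short of the annotated end of the gene, and that end was not searched. The downstream sequence to which CSTF2 itself is known to bind lies beyond the transcripts and was not analysed here.

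The IP held 3220045 assigned reads and the Input 9517885. Levels are RPKM, reads scaled to exon length in kilobases and to the assigned reads of the library. The log2 ratio is log2((IP + 1)/(Input + 1)) of RPKM, which understates differences of low genes, and it was used for the 9880 features whose mean RPKM was 1 or more. Ratios without a pseudocount carry a 95% interval from the read numbers behind the RPKM (Clopper-Pearson, exact and conditional on their sum). The mRNA of CSTF2 had 487 RPKM in the IP against 6.97 in the Input. All 11 hepatocyte and hepatoma markers looked for, such as albumin and alpha-fetoprotein, were listed in both libraries. Of 10 markers of blood, stromal and endothelial cells, 7 were not among the listed features, and LYZ, ACTA2 and COL3A1 had at most 12 IP reads and 26 Input reads.

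Most nuclear pore complex mRNAs, like most features tested, were somewhat higher in the IP, none by much. Of the 32, 25 had an RPKM ratio above 1 and 7 below 1, from 2.17 for RANBP2 to 0.296 for NUP35. A mean of at least 1 RPKM was reached by 25 members, and NUP133, NUP93, NUP85, NUP37, NUP35, RAE1 and NUP62CL fell short of it. Of these 25 members, 21 had a log2 ratio above 0, as did 5964 of 9880 features tested and 4583 of 7626 protein-coding ones. The median log2 ratio of the 25 was 0.43, against 0.17 for all features tested and 0.15 for protein-coding ones, so it lay 0.25 above that of all features. Their reads pooled gave a ratio of 1.53, from 3494 IP reads against 6770 in the Input. Protein-coding features tested had 2173233 IP reads against 3666066, a higher pooled ratio than the members. All features tested had 3147055 against 9039398, a lower one. The largest read number of any 1 feature tested was 4095730 in the Input and 665494 in the IP, so pooled ratios depend on a few features.

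No member of the 25 reached 2-fold on the log2 ratio in either direction. Among all features tested, 9.88% were higher by at least 2-fold and 6.83% lower by as much. Among protein-coding features these shares were 5.81% and 5.19%. The split of all calls depended on scaling, with 59.1% of them higher as deposited and 42.0% when centred on the median of all features. It was 27.5% when centred by a trimmed mean of ratios without a pseudocount. Without a pseudocount, 5 members (RANBP2, AAAS, NUP188, POM121C and NUP214) had a ratio of at least 2, against 19.6% of all features tested, so the members' share was near the background. The counting interval lay wholly above 1 for 15 of the 25 members and wholly below 1 for NUPL2 alone. For all features tested these shares were 36.1% and 20.0%. The median RPKM ratio of all features was itself 1.18, and 11 of the 25 members had an interval above that value and 3 below it, against 26.9% and 28.4% of all features tested. SEC13, NUP62, NUP107 and NUP155 had intervals that lie above 1 but include 1.18.

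**Figure D1:**
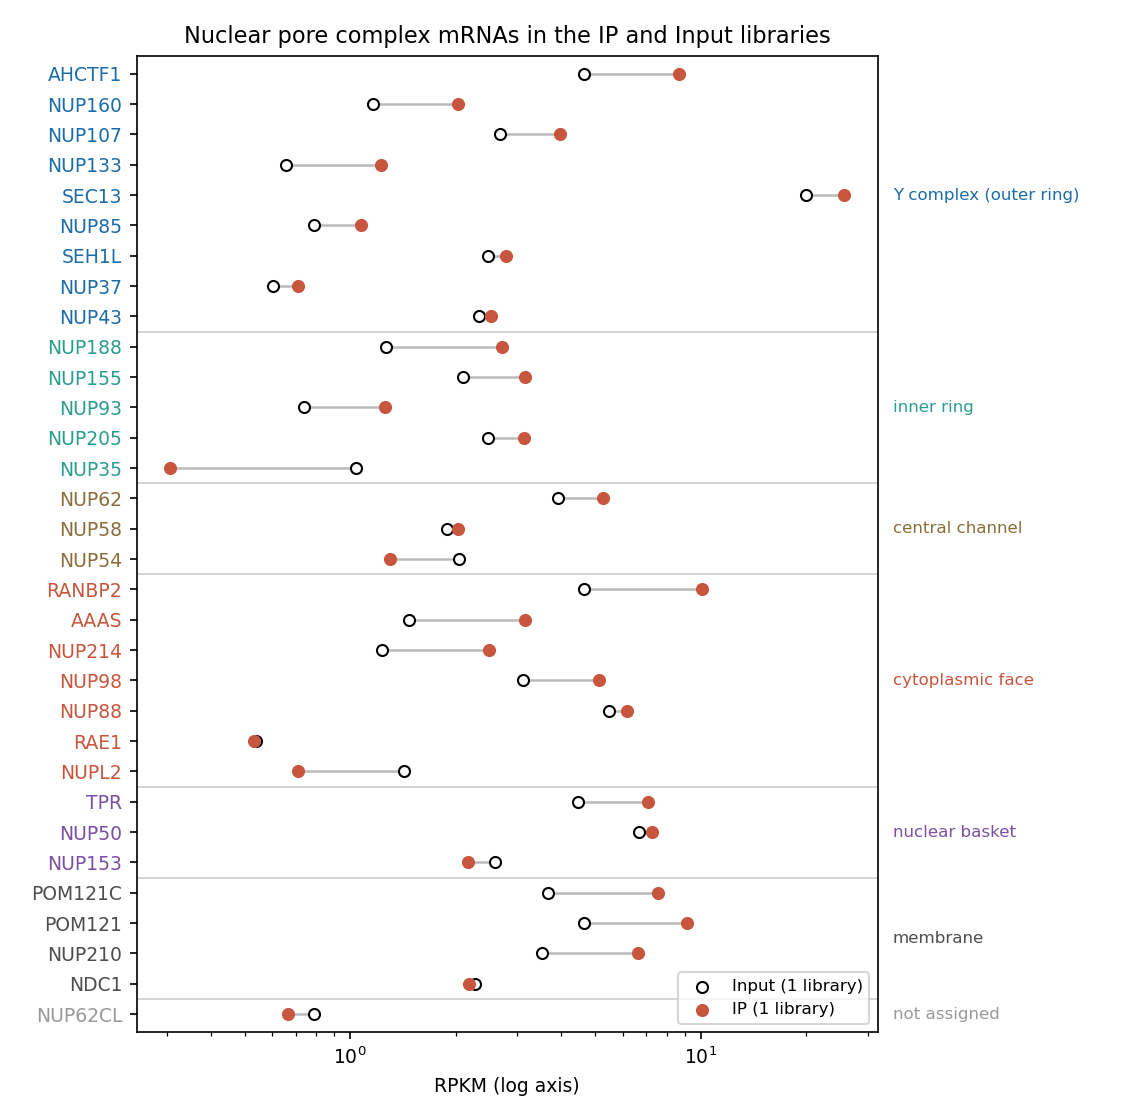
RPKM of the 32 nuclear pore complex mRNAs in the IP (filled) and Input (open) libraries, on a log axis, grouped by place in the pore. SEC13 is the highest in both libraries at 25.7 and 19.9 RPKM, and the IP point lies to the right of the Input point for 25 of the 32. Of 9880 features tested, 5964 were also higher in the IP.

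The Y complex forms the outer rings of the pore, and AHCTF1 (ELYS) joins it to chromatin when pores assemble after mitosis. AHCTF1 had 8.66 RPKM in the IP against 4.65 in the Input, on 268 and 425 reads. Its ratio of 1.86 (1.59 to 2.18) was the highest of this group's 6 members past the filter. NUP160, a long arm of the Y, had 2.03 RPKM in the IP against 1.16 in the Input, with a ratio of 1.74 (1.23 to 2.45). NUP107, a stem subunit, had 3.96 and 2.68 RPKM in the IP and Input, with a ratio of 1.48 (1.16 to 1.87). These 3 had intervals above 1, as did SEC13.

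SEC13, which also serves in the COPII coat of secretory vesicles, was by far the most abundant member. Its 25.7 RPKM in the IP against 19.9 in the Input rested on 450 and 1033 reads, and its ratio of 1.29 (1.15 to 1.44) was modest but precise. That interval includes 1.18, the median ratio of all features tested. SEH1L, shared like SEC13 with the GATOR complex of nutrient sensing, had 2.79 RPKM in the IP against 2.47 in the Input. NUP43 was the lowest of the group past the filter, at 2.52 RPKM in the IP against 2.32 in the Input, with a ratio of 1.09 (0.720 to 1.61). The intervals of SEH1L and NUP43 include 1, so no difference was detectable at this depth.

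The other 3 Y complex mRNAs were below the filter. NUP133, with 1.23 RPKM in the IP against 0.657 in the Input, had a ratio of 1.87 (1.07 to 3.19) on 24 and 38 reads. NUP85 had 18 and 39 reads and NUP37 had 8 and 20, and both intervals include 1. All 9 point estimates of this group were above 1, although 4 of the intervals include 1. The median ratio of all features tested was itself 1.18.

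The inner ring lines the membrane at the waist of the pore. NUP188, one of its large scaffold proteins, had 2.70 RPKM in the IP against 1.27 in the Input, with a ratio of 2.13 (1.55 to 2.93) on 70 and 97 reads. NUP205, the paralogous scaffold protein, had 3.14 and 2.47 RPKM in the IP and Input, with a ratio of 1.27 (0.960 to 1.67). The intervals of these paralogs overlap. NUP155 had 3.16 RPKM in the IP against 2.09 in the Input, with a ratio of 1.51 (1.17 to 1.95). NUP93, which links the inner ring to the channel, sat just under the filter at 1.25 RPKM in the IP against 0.736 in the Input, with a ratio of 1.71 (1.15 to 2.49).

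NUP35 (NUP53), a membrane-binding inner ring protein, was the exception in its group. It had 0.307 RPKM in the IP against 1.04 in the Input, on 4 and 40 reads. It was 3.38-fold lower in the IP (1.22 to 13.0), the lowest ratio of all 32 members, below the filter and with very few IP reads.

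The central channel trimer of NUP62, NUP58 and NUP54 carries FG repeats. NUP62 had 5.26 RPKM in the IP against 3.93 in the Input, with a ratio of 1.34 (1.05 to 1.70). NUP58 had 2.03 and 1.89 RPKM, with a ratio of 1.07 (0.802 to 1.43). NUP54 had 1.30 RPKM in the IP against 2.04 in the Input, with a ratio of 0.636 (0.353 to 1.08) on 17 and 79 reads. Of the 3, NUP62 alone had an interval that leaves out 1, and the intervals of NUP62 and NUP54 overlap slightly.

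On the cytoplasmic face, members lay at both ends of the range. RANBP2 (NUP358), the SUMO E3 ligase of the cytoplasmic filaments, had 10.1 RPKM in the IP against 4.64 in the Input on 399 and 543 reads. Its ratio of 2.17 (1.90 to 2.48) and its log2 ratio of 0.97 were the highest of all members. NUP214, which docks the export factor CRM1, had 2.50 RPKM in the IP against 1.23 in the Input, with a ratio of 2.03 (1.57 to 2.62). AAAS (aladin), mutated in triple A syndrome, had 3.15 and 1.47 RPKM in the IP and Input, with a ratio of 2.14 (1.40 to 3.24) on 42 and 58 reads. NUP98, an FG nucleoporin whose gene also encodes NUP96 of the Y complex, had 5.14 RPKM in the IP against 3.12 in the Input, with a ratio of 1.65 (1.35 to 2.00).

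The remaining members of the cytoplasmic face were level or lower. NUP88, the partner of NUP214, had 6.16 RPKM in the IP against 5.48 in the Input, with a ratio of 1.12 (0.889 to 1.41). RAE1, an mRNA export factor that binds NUP98, had 0.530 and 0.538 RPKM on 10 and 30 reads, too few to show a difference. NUPL2 (NUP42), which binds the export factor GLE1, had 0.711 RPKM in the IP against 1.42 in the Input. It was 2.00-fold lower in the IP (1.01 to 4.38) on 10 and 59 reads, the lowest of the members past the filter.

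In the nuclear basket, TPR, the main structural protein of the basket filaments, had 7.09 RPKM in the IP against 4.46 in the Input, with a ratio of 1.59 (1.37 to 1.84). NUP50, which helps to release import cargo, had 7.28 and 6.66 RPKM, with a ratio of 1.09 (0.923 to 1.29). NUP153, which anchors the basket, had 2.16 RPKM in the IP against 2.60 in the Input, with a ratio of 0.833 (0.577 to 1.18). TPR was thus higher by more than counting error, while NUP50 and NUP153 were not distinguishable from 1.

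The membrane nucleoporins had the highest group median, a log2 ratio of 0.80 over 4 genes. Of these, POM121 and POM121C are near copies that may share reads. With NUP210 they have exon lengths over 8 kb, where the median of protein-coding features was itself 0.46. NUP210 (gp210), the large lumenal ring protein, had 6.60 RPKM in the IP against 3.52 in the Input, with a ratio of 1.88 (1.54 to 2.28). POM121 had 9.14 and 4.65 RPKM in the IP and Input, with a ratio of 1.96 (1.69 to 2.28). POM121C, its close paralog, had 7.55 and 3.68 RPKM, with a ratio of 2.05 (1.71 to 2.45). NDC1, needed for pore insertion, had 2.18 RPKM in the IP against 2.27 in the Input, with a ratio of 0.959 (0.639 to 1.41). The interval of NDC1 does not reach those of the other 3. NUP62CL, a NUP62-like gene assigned to no group, had 4 and 14 reads.

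**Figure D2:**
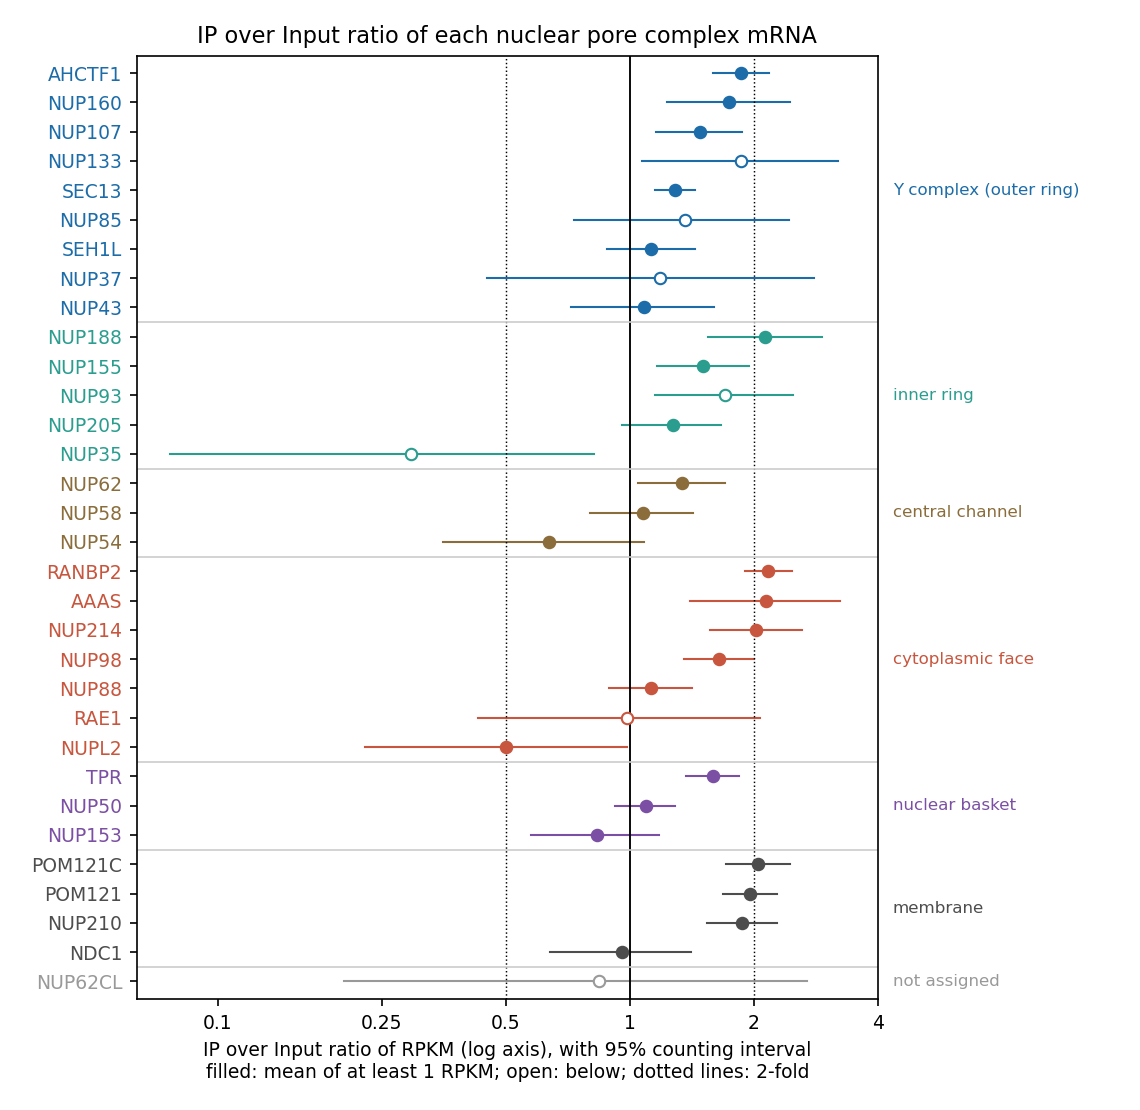
Ratio of IP to Input RPKM for each of the 32 members on a log axis, with the 95% counting interval as a line. Filled points passed the filter and open points did not, and the dotted lines mark 2-fold. RANBP2 at 2.17 is the highest and NUP35 at 0.296 the lowest.

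Several of the high members have near copies elsewhere in the genome, among which reads could be split or shared by the authors' counting. Of the 31-base words in POM121 transcripts, 72.6% also occur in transcripts of another gene, 39.5% in those of POM121C. For POM121C the share was 56.7%, for AHCTF1 52.5% (mostly the pseudogene AHCTF1P1) and for RANBP2 33.4% (mostly RGPD8, of the RGPD family of RANBP2 copies). RGPD8 had 20 IP reads against 10 in the Input, RGPD1 had 4 and 0, and the pseudogene POM121B had 6 and 5. Values of POM121, POM121C, AHCTF1 and RANBP2 are therefore uncertain as to which copy the reads came from. AAAS and NDC1 shared no such word with any other gene, and NUP210 shared 1.44%. NUPL2, at the low end, shared 18.8%, of which the largest part was with AC005082.2 (12.2% of its words). Of the 32 members, 18 had at least 5% of their words in other genes.

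Exons of 9 members overlap those of another listed gene, and no source used here says whether the counting used strand. Reads from the shared bases could therefore not be told apart. The shared part was as small as 0.01% of exon bases for POM121C, 0.20% for NUP98 and 0.76% for NUP188. Of NUP62 exon bases, 10.4% lie across ATF5 and 5.58% across IL4I1, and parts of NUP88 lie across RABEP1 and RPAIN. Of POM121 exon bases, 18.8% lie across the pseudogene NSUN5P2, which had 14 IP reads against 39 in the Input. Leaving out the members that overlap another gene by any length, with POM121, POM121C and RANBP2, left 15 members with a median log2 ratio of 0.25. AHCTF1 was kept among these 15. Leaving out instead the members with at least 5% of words in other genes left 9, with a median of 0.35. The median of all features was 0.17.

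Many members have a long exon union, the summed length of all exons of all annotated isoforms, which is not the length of any 1 mRNA, and among protein-coding features the log2 ratio was higher in longer classes. The median exon-union length was 8318 bases for the 25 members and 4778 bases for protein-coding features tested. Among protein-coding features the median log2 ratio went from -0.41 under 2 kb through -0.04 (2 to 4 kb), 0.16 (4 to 6 kb) and 0.26 (6 to 8 kb) to 0.46 over 8 kb. Set against its own exon-union class, 13 members were above the class median and 12 below, and the median of the differences was 0.02.

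Among the 15 members over 8 kb by exon union, 12 had a counting interval above 1, and the lowest log2 ratio was 0.07. The share of protein-coding features over 8 kb with such an interval was 67.1%. Each of these 15 had at least 56 IP reads, against as few as 10 among the members of 4 to 8 kb. Among the 10 members of 4 to 8 kb, 3 had an interval above 1, against 40.7% of protein-coding features of these lengths. AAAS, at 4138 bases, was 0.59 above its class, the largest such difference, followed by RANBP2 at 0.51 and POM121C at 0.41. NUPL2 was 0.66 below its class (-0.66), NUP54 0.57 below (-0.57) and NUP153 0.44 below (-0.44). SEH1L and NUP58, with exon unions of 10481 and 10422 bases, were 0.33 (-0.33) and 0.39 (-0.39) below their class, but their principal transcripts have only 1846 and 2489 bases.

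The choice of length measure changed this comparison. By principal transcript length, the median log2 ratio of protein-coding features was -0.25 under 2 kb, 0.16 (2 to 4 kb), 0.30 (4 to 6 kb), 0.36 (6 to 8 kb) and 0.56 over 8 kb. Set against these classes, 15 members were above the class median and 10 below, and the median of the differences was 0.18. AAAS, with a transcript of 1840 bases, was again the highest at 0.99 above its class, followed by SEC13 at 0.60. SEH1L changed sign, to 0.37 above its class, while NUP54 (-0.57) and NUP153 (-0.49) were the lowest under this measure.

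**Figure D3:**
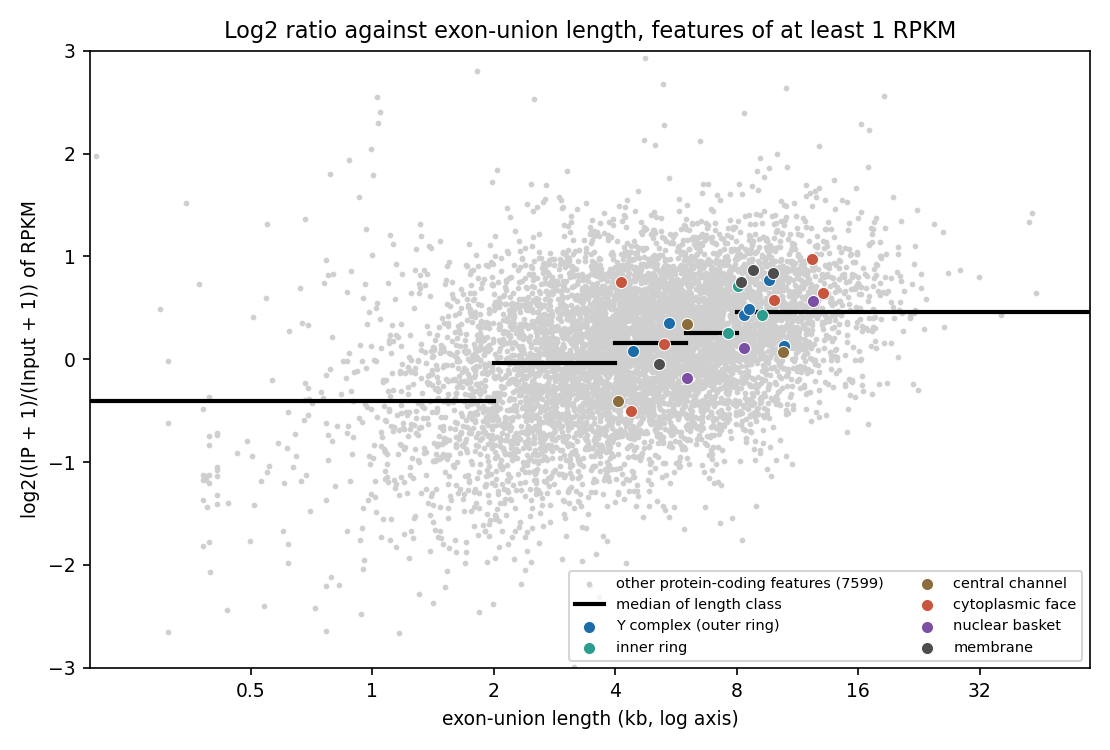
Log2 ratio against exon-union length (kb, log axis) for the 25 members past the filter, coloured by place in the pore, over 7599 other protein-coding features in grey. Black lines are the medians of 5 length classes, from -0.41 under 2 kb to 0.46 over 8 kb, and 6 features lie outside the plotted range.

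Across the 25 members, Spearman's rho of the log2 ratio with exon-union length was 0.51, and it was 0.38 across 7596 protein-coding features. With principal transcript length it was 0.60 and 0.40. With the Input level it was 0.24 over members and -0.39 over protein-coding features. The Input is also the denominator of the log2 ratio, so counting noise in it builds a negative part into this rho. With GC content of the principal transcript, rho was 0.26 and 0.27. The density of TGTGT, a GU-rich word searched on the transcript strand with overlaps allowed, had a rho of -0.01 over members and -0.03 over protein-coding features. Its median density was 1.37 per kb in the members and 1.29 per kb in protein-coding features tested. All points share the same pair of libraries, so these are descriptions across genes and not tests.

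Related lists of nuclear transport and envelope genes served as comparison. Of 31 transport receptors and Ran cycle genes, 27 passed the filter, none was past 2-fold on the log2 ratio with its pseudocount of 1 and their median log2 ratio was 0.03, which was 0.15 below that of all features (-0.15). Without a pseudocount, XPO6 had a ratio of at least 2 and NUTF2 and XPO7 were at least 2-fold lower, against 19.6% and 10.8% of all features tested. Counting intervals of the 27 lay above 1 for 9 and below 1 for 8, against 36.1% and 20.0% of all features tested. RANGAP1, the GTPase-activating protein that RANBP2 holds at the pore, had 10.3 RPKM in the IP against 5.52 in the Input, with a ratio of 1.87 (1.54 to 2.27). The importin IPO4 had a ratio of 1.51 (1.26 to 1.80). NUTF2, which carries Ran-GDP into the nucleus, had 4.78 RPKM in the IP against 9.85 in the Input and was 2.06-fold lower (1.56 to 2.75), and the importin IPO7 was 1.60-fold lower (1.40 to 1.84).

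Of 20 mRNA export genes, 19 passed the filter, and on the log2 ratio 1 was at least 2-fold higher, none was 2-fold lower and the median was 0.31. Among all features tested, 9.88% were higher and 6.83% lower by 2-fold. Without a pseudocount, 3 (ZC3H11A, THOC2 and MCM3AP) had a ratio of at least 2, against 19.6% of all features tested. Intervals lay above 1 for 10 of the 19 and below 1 for none, against 36.1% and 20.0% of all features tested. ZC3H11A, a zinc finger protein of mRNA export, had 7.24 RPKM in the IP against 2.83 in the Input, with a ratio of 2.56 (2.13 to 3.07). THOC2, the scaffold of the THO complex, had a ratio of 2.16 (1.87 to 2.50). At the low end, NXT1, the partner of the export receptor NXF1, had a ratio of 0.782 (0.438 to 1.33) and THOC7 one of 0.873 (0.609 to 1.23).

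Of 18 nuclear lamina and envelope genes, 14 passed the filter, and on the log2 ratio 1 was at least 2-fold higher, none was 2-fold lower and the median was 0.12. Among all features tested, 9.88% were higher and 6.83% lower by as much. Without a pseudocount, LMNB2 and SUN2 had a ratio of at least 2, against 19.6% of all features tested. LMNB2, encoding lamin B2, had 33.6 RPKM in the IP against 14.8 in the Input, with a ratio of 2.26 (2.03 to 2.52). LMNA, encoding lamins A and C, had a ratio of 1.72 (1.497 to 1.98). BANF1, a chromatin-binding partner of the envelope, was 1.81-fold lower (1.15 to 2.96), and EMD, encoding emerin, 1.59-fold lower (1.03 to 2.53). The pore complex had the highest median of the 4 lists, but the ranges of all 4 overlap and the difference between lists was not tested. The lists were not matched for length. Their median exon-union lengths were 8318 bases (pore), 7029 (transport), 5625 (export) and 5518 (envelope).

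**Figure D4:**
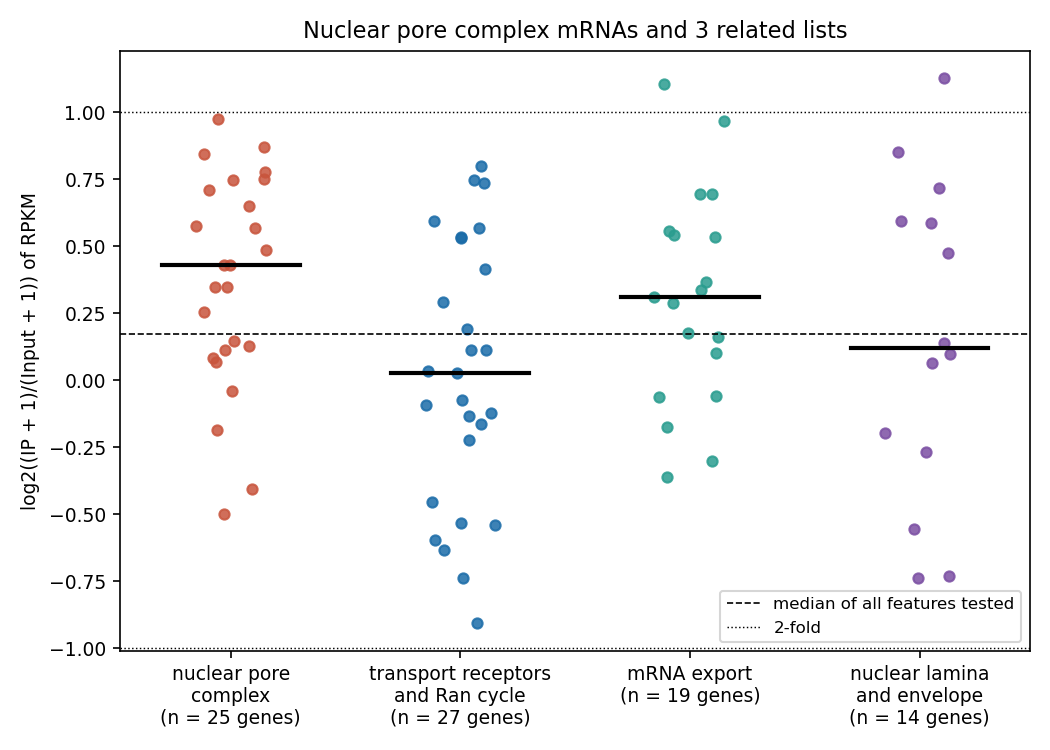
Log2 ratio of each gene past the filter (points, spread sideways for clarity) in the nuclear pore complex list and 3 related lists, with each list's median as a bar. The medians are 0.43, 0.03, 0.31 and 0.12 from left to right, and the dashed line is the 0.17 of all features.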

How the data were processed

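Per the file headers, the authors deposited RPKM values for 1 IP and 1 Input library and a log2 fold change (IP against Input). FastQC 0.12.0 and the build hg38 were used, per the submitters' processing notes. Which aligner, counter and annotation were used is not given in the sources used here. The log2 fold change that the authors deposited served only to check or solve for reads. Depth was the number that made RPKM times GENCODE v29 exon length whole (tolerance 0.01 reads). All 32 members gave whole reads, 31 of them with the annotated length. AHCTF1 needed 9609 bases in place of the 9598 annotated and was solved through the deposited log2 fold change. The recovery and the intervals were tested on simulated data. PCR reads are not independent molecules, so intervals can be too narrow.

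With 1 library per group no test was made. A mean of at least 1 RPKM and a pseudocount of 1 RPKM were used. Alternatives changed the pseudocount, filter, scaling, threshold and members. All members are named. In the related lists the 2 highest and 2 lowest genes with a mean of at least 5 RPKM are named, and copies, overlapping genes and CSTF2 as checks. The members and lists were chosen with earlier results of these data known. The word searches, differences from both kinds of length class, ratio counts of the related lists (with the genes named from them) and TGTGT density were added after the files were seen. Genome and protein sequence were not used here. Python 3.11.15, scipy 1.17.1 and matplotlib 3.10.9 were used.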

Additional observations from a re-analysis of the deposited data

How the results depend on the processing

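The number of members at least 2-fold higher (0) became 4 with a pseudocount of 0.1 RPKM, 8 at a 1.5-fold threshold and 15 when an interval above 1 was counted. Among all features tested the shares at these 3 settings were 18.5%, 26.0% and 36.1%. The number lower (0) became 1 when an interval below 1 was counted, against 20.0% of all features tested. Both numbers were 0 under the 8 other alternatives run for the higher and the 10 other for the lower. The median log2 ratio (0.43) became 0.75 with a filter of 5 RPKM, which left 9 members, 0.10 with centring by a weighted trimmed mean, and 0.0234 as a difference from the median of the exon-length class, an alternative chosen after seeing the data, as were the 2 counts of intervals. It was 0.18 as a difference from the median of the transcript-length class, added last, and between 0.20 and 0.55 under the other alternatives. On the trimmed mean, 15 of 25 members were above 0, and the share of all features at that setting was not taken. As deposited, 21 of the 25 members and 5964 of 9880 features tested were above 0. Centred on the median of all features, 16 of the 25 members were above 0, against 4940 of the 9880 features by construction. The centre by the trimmed mean was 0.33, taken from read ratios without a pseudocount and without the filter on low values. The median of all features, 0.17, is of the log2 ratio with its pseudocount, so these centres are unlike measures. Subtracting 0.33 from log2 ratios with a pseudocount may lower them by more than a centre of the same measure would. Over all features tested, 976 higher and 675 lower became 1830 and 1023 with a pseudocount of 0.1 RPKM, 186 and 295 with 5 RPKM, and 486 and 1281 with the trimmed mean. With a pseudocount of 0.1 RPKM, 1 transport gene was higher and 2 lower by 2-fold, where 0 were before, and 3 mRNA export genes and 2 envelope genes were higher, where 1 of each was. With 5 RPKM none of these were. Among all features tested, 18.5% were higher and 10.4% lower with the pseudocount of 0.1 RPKM. Of 64 single-gene alternatives, 56 moved by no more than the distance from the middle to an end of the counting interval, on the log2 scale. That margin is wide where reads are few. NUP35 went from -0.64 to -1.76 without a pseudocount and still counted as unmoved. Depth limits members with few reads, such as NUP35, NUP62CL, NUP37, RAE1 and NUPL2, each with at most 10 IP reads.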
